A study of Mus musculus with 80 samples.

Results

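Zinc finger genes are among the largest gene families of the mouse, and many of them lie side by side in clusters made by repeated duplication. The gene bodies described here are the rows of the expression table whose symbol is Zfp followed by digits only, on the autosomes, without Zfp42 and Zfp352. They number 332 of 24483 autosomal rows, and hold 331 symbols because Zfp319 is listed in 2 rows. A gene was called clustered when another such gene lay within 100 kb on the same chromosome, which gave 178 clustered and 154 lone genes. Chromosome 7 held 86 of the 332, of which 67 were clustered, chromosome 17 held 39 and chromosome 13 held 31.

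The RNA-seq samples came from E14, a wild-type mouse embryonic stem cell (ESC) line. The ChIP-seq samples are mouse ESCs whose titles name no line. Cells were grown in serum or moved to 2i, in which inhibitors of MEK and GSK3 take the place of serum. Dimethylated lysine 9 of histone H3 (H3K9me2) was measured by ChIP-seq with 2 bound libraries and 1 input library each in serum, at 24 h of 2i and in long-term (LT) 2i, whose duration the labels do not give. RNA-seq covered serum and 6, 24 and 72 h of 2i, with 3 libraries each. Every RNA-seq library is of the same line. The study calls replicates of its expression time course biological, and no label says that libraries came from separate cultures, so p-values measure the spread between these libraries, which for ChIP-seq may be technical.

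H3K9me2 is a mark of silent chromatin that the methyltransferases G9a (Ehmt2) and GLP (Ehmt1) deposit, and it is usually low over transcribed genes. Many zinc finger proteins carry a KRAB domain, which binds the co-repressor TRIM28 and through it the H3K9 methyltransferase SETDB1, and so silence transposable elements and imprinted regions. Other genes with the same prefix encode zinc finger proteins of other kinds, such as Zfp36, which binds AU-rich RNA.

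The ChIP-seq libraries held 14396552 to 23785128 reads in 2-kb bins, and the input gave a median of 19.7 reads per autosomal bin. Of the 332 gene bodies, 311 (166 clustered and 145 lone) overlapped at least 1 bin of the deposited table. The other 21 had none, among them Zfp600, Zfp932, Zfp738 and Zfp808, and no H3K9me2 value exists for them here. The table held 80.5% of the possible bins over clustered genes and 93.4% over lone ones. Enrichment is given as log2 of bound over input after scaling to the reads of each library, so that 0 is the level of the input. The markers of ESCs were high in serum, with deposited log2 values of 8.29 for Pou5f1, 7.28 for Sox2 and 6.78 for Nanog. The fibroblast markers Col1a1, Thy1, Col1a2 and Col3a1 lay between 2.49 and -2.38 in serum, and both that passed the filter on low values, Col1a1 and Thy1, fell at 72 h by 0.96 and 0.46 on the log2 scale. The primitive endoderm markers Gata4, Gata6, Sox17 and Dab2 lay between 0.90 and -2.27 in serum, and Dab2, which alone passed that filter, fell by 1.08 at 72 h. Of those not tested, Gata4 had means of -0.70 in serum and 0.22 at 72 h, Sox17 of -2.27 and -1.68, and Gata6 of -0.0029 and 0.12. The part of such cells in the results was not tested.

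The start regions of 6 genes named below are printed. Zfp618 had one of the highest levels of H3K9me2 over its body, and Zfp281 and Zfp839 were low. Zfp872 was called higher in H3K9me2 at 24 h and Zfp445 in LT 2i, and both calls were lost in some alternatives. Zfp57 had the largest early fall in expression. The sequences are those of RefSeq (GRCm38.p6), 250 bases before to 50 after the start, 5′ to 3′ on the gene's strand, with each CG dinucleotide in capitals.
Zfp618, chr4:62965317-62965616, plus strand: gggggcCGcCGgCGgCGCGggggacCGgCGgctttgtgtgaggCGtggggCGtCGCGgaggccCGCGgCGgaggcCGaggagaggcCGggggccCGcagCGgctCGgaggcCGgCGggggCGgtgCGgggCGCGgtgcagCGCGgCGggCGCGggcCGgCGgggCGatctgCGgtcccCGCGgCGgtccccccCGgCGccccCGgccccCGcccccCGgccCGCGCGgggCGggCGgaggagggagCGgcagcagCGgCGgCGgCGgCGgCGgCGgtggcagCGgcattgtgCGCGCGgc
Zfp281, chr1:136624651-136624950, plus strand: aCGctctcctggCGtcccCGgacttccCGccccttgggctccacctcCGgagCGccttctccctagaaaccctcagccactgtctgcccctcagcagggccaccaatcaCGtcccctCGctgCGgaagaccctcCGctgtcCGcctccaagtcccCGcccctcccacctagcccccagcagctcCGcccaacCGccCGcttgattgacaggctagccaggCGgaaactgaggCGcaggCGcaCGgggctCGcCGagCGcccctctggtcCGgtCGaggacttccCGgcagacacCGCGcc
Zfp839, chr12:110850029-110850328, plus strand: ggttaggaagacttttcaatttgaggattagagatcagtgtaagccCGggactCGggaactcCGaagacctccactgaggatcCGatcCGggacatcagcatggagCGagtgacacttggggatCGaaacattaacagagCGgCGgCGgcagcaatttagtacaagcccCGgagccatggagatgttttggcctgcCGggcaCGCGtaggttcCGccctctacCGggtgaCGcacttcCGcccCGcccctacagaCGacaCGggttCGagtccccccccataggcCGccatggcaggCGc
Zfp872, chr9:22187916-22188215, plus strand: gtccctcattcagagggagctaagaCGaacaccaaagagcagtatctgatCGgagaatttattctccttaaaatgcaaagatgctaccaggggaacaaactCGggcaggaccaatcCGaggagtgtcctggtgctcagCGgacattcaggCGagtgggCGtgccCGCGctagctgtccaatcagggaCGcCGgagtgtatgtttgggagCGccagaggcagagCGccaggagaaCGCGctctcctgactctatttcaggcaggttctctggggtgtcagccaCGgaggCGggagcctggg
Zfp445, chr9:122865957-122866256, minus strand: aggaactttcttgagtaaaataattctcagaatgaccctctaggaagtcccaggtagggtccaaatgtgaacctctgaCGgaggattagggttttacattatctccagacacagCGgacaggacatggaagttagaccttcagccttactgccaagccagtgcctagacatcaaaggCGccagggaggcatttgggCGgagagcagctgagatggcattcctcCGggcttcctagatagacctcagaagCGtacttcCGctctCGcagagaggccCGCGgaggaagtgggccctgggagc
Zfp57, chr17:37000913-37001212, plus strand: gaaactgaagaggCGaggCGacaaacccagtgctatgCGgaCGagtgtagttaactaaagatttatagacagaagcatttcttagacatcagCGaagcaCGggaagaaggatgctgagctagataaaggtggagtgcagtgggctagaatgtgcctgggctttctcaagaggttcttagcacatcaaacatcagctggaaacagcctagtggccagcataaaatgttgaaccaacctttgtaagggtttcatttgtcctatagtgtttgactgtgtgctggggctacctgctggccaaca

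These windows held 59 CG in Zfp618, 27 in Zfp281, 24 in Zfp839, 17 in Zfp872, 10 in Zfp445 and 6 in Zfp57. A RefSeq promoter was matched for 267 of the 332 genes, with a median of 15 CG per 300 bases against 14 over 15083 promoters of other autosomal genes. At least 10 CG were found in 69.7% of zinc finger promoters (67.8% of clustered and 72.0% of lone) and in 58.3% of the others. The 2-kb bin that holds the start had a median serum enrichment of -2.63 over 234 zinc finger genes and -2.38 over 13889 other genes. The start bin of Zfp618 lay at -3.27 in serum although its body lay at 0.36. That of Zfp445 lay at 0.64 in serum, 1.21 at 24 h and 1.76 in LT 2i, on the side of enrichment in each condition. The RefSeq start of Zfp445 lies outside the gene body of the table, and this bin was not part of its body.

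Zinc finger gene bodies were poor in H3K9me2. In serum the median enrichment of the 311 bodies was -1.34 and -1.42 in the 2 libraries, while that of the 22493 other gene bodies was -0.84 and -0.95. Only 15 of the 311 lay above the input, or 4.82%, against 26.2% of other gene bodies. Against the quartiles of other gene bodies, 67 of the 311, or 21.5%, lay below the lower one and 15, or 4.82%, above the upper one. Olfactory receptor genes, another clustered family, differed from them throughout. The median of 944 olfactory receptor bodies was 0.25 in serum, 0.37 at 24 h and 0.46 in LT 2i, and 675 of them lay above the input in serum. Only 1 olfactory receptor gene passed the filter on low expression values, so the families were not matched for expression. The 944 bodies are also among the other gene bodies.

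**Figure D1:**
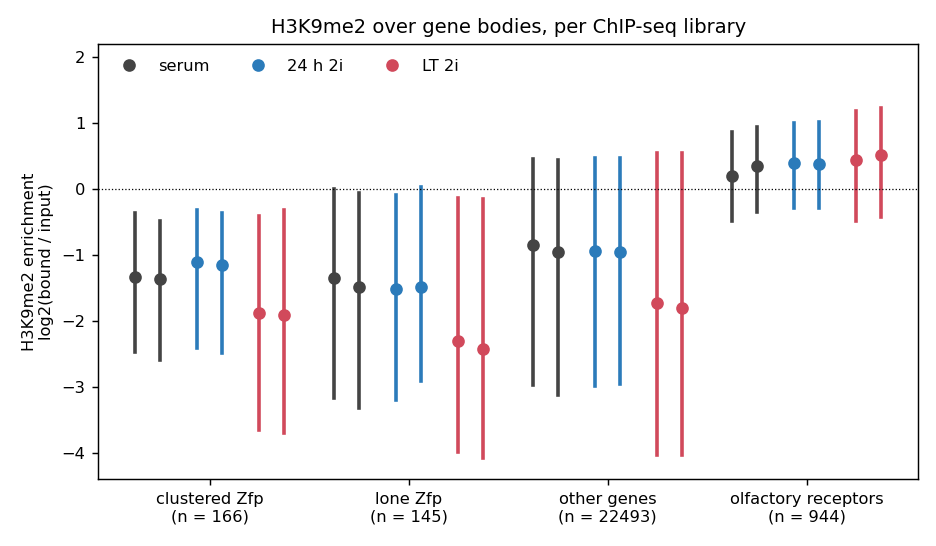
H3K9me2 enrichment (vertical axis, log2 of bound over input) in each of the 6 bound libraries, for clustered and lone zinc finger genes, all other autosomal genes and olfactory receptor genes. Points are medians over gene bodies and lines run from the 10th to the 90th percentile; both zinc finger groups lie below the other genes in every library, and olfactory receptors lie above the input.

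The low level went together with expression. Over the 311 genes Spearman's rho between serum enrichment and the serum log2 expression value was -0.50, a description across genes that are not independent replicates. The 18 zinc finger genes with a serum expression value under -2 had a median enrichment of -0.22, the 144 with a value from 0 to 2 had -1.30, and the 25 at 4 or more had -2.54. Other genes of the same expression lay close to these values, at -0.03, -1.13 and -2.49. In serum zinc finger genes lay below the others in each of the 5 expression classes, and in LT 2i they lay above them in all but the class under -2. The LT medians of zinc finger and other genes were -0.39 and -0.30 under -2, -1.34 and -1.50 from -2 to 0, -1.90 and -2.18 from 0 to 2, -2.76 and -2.91 from 2 to 4, and -3.46 and -3.51 at 4 or more. These differences were not tested. By length, the 162 zinc finger bodies of 10 to 30 kb had a serum median of -1.42 against -1.35 for 6190 others, and in LT 2i the order turned, with -1.95 against -2.35. Bodies under 10 kb had -1.64 over 92 zinc finger genes and -1.07 over 9049 others in serum, and -2.52 and -1.93 in LT 2i. Bodies of 30 kb or more had a serum median of -0.91 over 57 zinc finger genes and -0.47 over 7254 others, and in LT 2i -1.63 and -1.23, so the order did not turn in these classes.

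**Figure D2:**
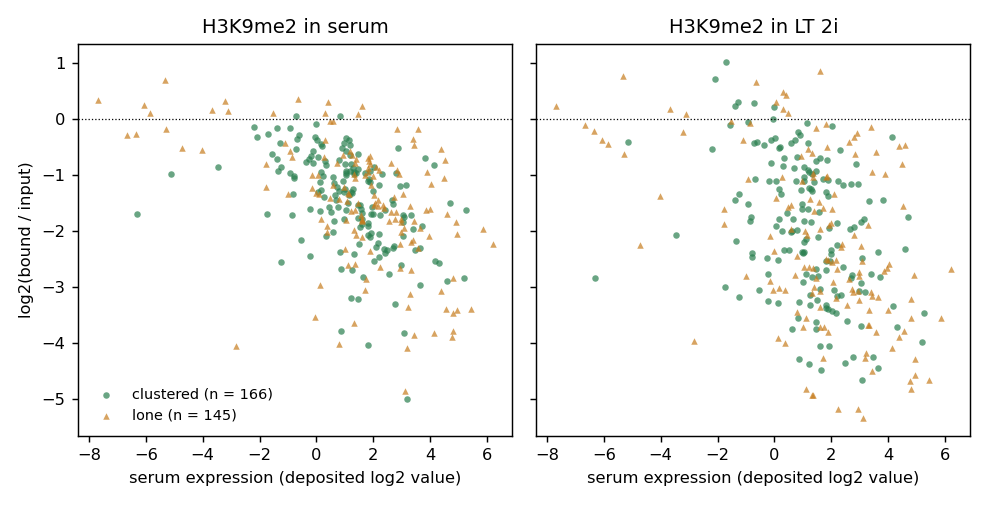
H3K9me2 enrichment of the 311 zinc finger gene bodies (vertical axis, log2 of bound over input, mean of 2 libraries) against serum expression (horizontal axis, deposited log2 value, mean of 3 libraries), in serum (left) and LT 2i (right). Each point is a gene body, green circles clustered and orange triangles lone; enrichment is lower at higher expression, with rho of -0.50 in serum and -0.43 in LT 2i.

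The 5 bodies with the highest serum enrichment among those with enough reads to be tested were all lone genes with serum expression values of 0.40 or less. Zfp474 lay at 0.75 and 0.64 in serum, 0.64 and 0.59 at 24 h, and 0.74 and 0.83 in LT 2i, and its serum expression value was -5.34. Zfp618 lay at 0.46 and 0.27 in serum, 0.31 and 0.26 at 24 h, and 0.76 and 0.57 in LT 2i. Its LT libraries lay above all 4 others, a difference of 0.28 ± 0.06 (SE) with an adjusted p of 0.000604 in limma. Zfp831 (0.35, mean of 2 serum libraries), Zfp521 (0.32) and Zfp800 (0.32) completed the group, and Zfp521 is a factor of early neural and blood cells. The 5 lowest were Zfp64 (-3.12), Zfp568 (-2.84), Zfp384 (-2.70), Zfp187 (-2.61) and Zfp839 (-2.61). Zfp568, a KRAB protein that represses a placental transcript of Igf2, was also highly expressed, with a serum value of 5.20. Its enrichment was -2.63 and -3.05 in serum, -2.85 and -2.85 at 24 h, and -3.82 and -4.14 in LT 2i. Some bodies were lower still but had too few bound reads to be tested. Zfp207, a spindle assembly and splicing factor, lay at -3.47 and -3.32 in serum over 12 bins, with 27 and 29 bound reads against 316 in the input.

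Within the bodies H3K9me2 was lowest at the start. Over genes of 10 kb or more, the median in serum was -1.86 in the first of 5 equal parts, -1.37 in the second and -1.13 in the last, and it was -1.07 in the 10 kb before and -0.85 in the 10 kb after. In LT 2i the first part lay at -2.67 and the last at -1.94. At 24 h the last part of clustered genes lay at -0.94, against -1.19 in serum. For lone genes those values were -1.07 and -1.10. The last part was the one where clustered genes differed most between 24 h and serum. From the first part to the fourth, clustered genes lay at -1.79, -1.26, -0.99 and -1.05 at 24 h. In serum they lay at -1.86, -1.27, -1.16 and -1.19.

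**Figure D3:**
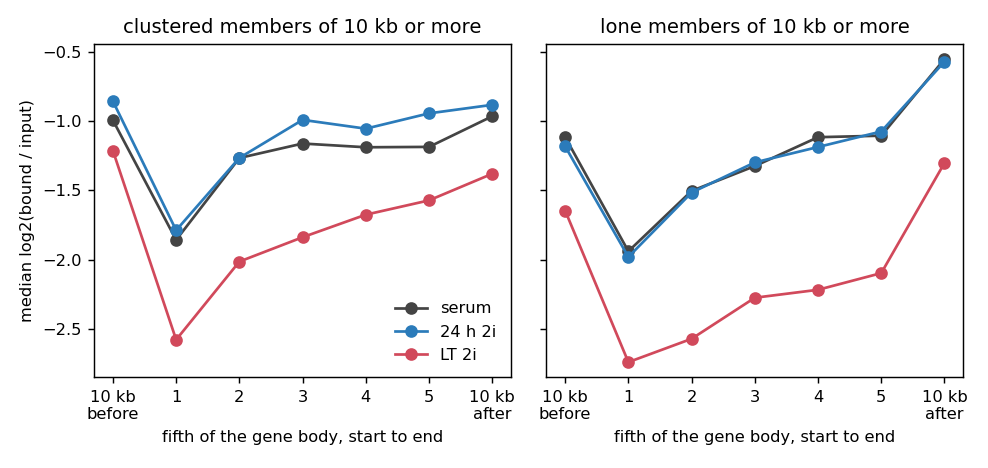
Median H3K9me2 enrichment (vertical axis, log2 of bound over input) in 5 equal parts of the gene body from start to end and in the 10 kb on either side, for clustered (left) and lone (right) zinc finger genes of 10 kb or more. Lines are serum, 24 h and LT 2i; every line has its lowest point in the first part, and LT 2i lies below serum at each position.

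Over all 311 genes, clustered and lone bodies had closer medians in serum than in 2i. Clustered bodies had medians of -1.33 and -1.37 in serum, -1.11 and -1.15 at 24 h, and -1.87 and -1.91 in LT 2i. Lone bodies had medians of -1.34 and -1.48 in serum, -1.51 and -1.48 at 24 h, and -2.30 and -2.42 in LT 2i. The clustered median minus the lone median was 0.06 ± 0.07 (SD, n = 2 libraries) in serum, 0.37 ± 0.05 at 24 h and 0.47 ± 0.06 in LT 2i. With a cluster distance of 50 kb it was -0.048, 0.20 and 0.32. Over all 332 genes, clustered and lone ones had median serum expression values of 1.22 and 1.81 and median lengths of 13.8 and 16.8 kb. By length, clustered and lone LT medians were -2.47 and -2.63 under 10 kb and -1.81 and -2.29 from 10 to 30 kb. They were -0.90 and -2.12 at 30 kb or more, with 17 clustered and 40 lone genes. The 2i libraries lay above both serum libraries in the difference at 100 kb, which was not tested because the genes were chosen with earlier results known. The median change of a body's own bound reads at 24 h was 0.12 for clustered and 0.02 for lone genes, and in LT 2i it was -0.56 and -0.68. With bound reads alone, each body set against its own mean over the 6 libraries, the difference of the medians was -0.11, 0.04 and 0.09 in the 3 conditions. Setting bodies against their own means removes differences in level, so only the steps between conditions can be read from these values. Among the 87 clustered and 57 lone genes with a serum expression value from 0 to 2, the mean over libraries of the difference in enrichment was -0.11 in serum, 0.33 at 24 h and 0.12 in LT 2i. With the 2 libraries averaged before the median was taken, clustered and lone genes of this class lay at -1.29 and -1.31 in serum, so the serum sign depended on this order, at -1.07 and -1.35 at 24 h, and at -1.81 and -1.97 in LT 2i. Those with a value from 2 to 4, 38 clustered and 45 lone genes, differed most in serum, with clustered genes lower, and lay at -2.01 and -1.65 in serum, -1.79 and -1.78 at 24 h, and -2.70 and -2.80 in LT 2i. Under -2, 5 clustered and 13 lone genes lay at -0.85 and 0.11 in serum and -0.52 and -0.23 in LT 2i. From -2 to 0, 29 and 12 genes lay at -0.72 and -0.90 in serum and -1.11 and -1.73 in LT 2i. At 4 or more, 7 and 18 genes lay at -2.54 and -2.53 in serum, -1.30 and -2.46 at 24 h, and -3.35 and -3.56 in LT 2i. The pair just inside the distance of 100 kb was Zfp932 and Zfp605 at 99.7 kb, and the pair just outside was Zfp72 and Zfp825 at 104.0 kb. Serum enrichment was -1.08 in Zfp605 and -1.46 in Zfp72.

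The largest cluster, with 14 genes, lies at chr7:29768552-30169727 (GRCm38). It had a pooled enrichment over its gene bodies of -1.78 and -1.98 in serum, -1.70 and -1.77 at 24 h, and -2.31 and -2.47 in LT 2i. The bins between its genes were higher than the gene bodies in each library, at -1.05 and -1.20 in serum and -1.58 and -1.58 in LT 2i. Its lowest member in serum was Zfp568 (-2.84) and its highest Zfp940 (-0.62). Of 11 members with enough reads, 5 had lower H3K9me2 in LT 2i than in serum and 0 had higher, with 10.4% and 61.5% of all bodies called higher and lower. In serum, bins between genes were also higher in the clusters described below, except in that of 10 genes on chromosome 7. There they lay at -1.35, against -1.12 over its gene bodies (means of 2 libraries), and in LT 2i at -1.13 against -1.44.

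The cluster of 13 genes at chr13:67038594-67553152 was different in level. Its gene bodies lay at -0.83 and -0.77 in serum, -0.74 and -0.60 at 24 h, and -0.84 and -0.85 in LT 2i, so that all 6 libraries lay between -0.85 and -0.60. The table held 57.8% of its bins, against 92.5% in the chromosome 7 cluster. The median serum expression value was -0.11 here and 1.38 in the chromosome 7 cluster. The filter on low expression values was passed by 5 of 13 genes here and 13 of 14 there. Of 11 members of the chromosome 13 cluster tested, 2 were lower and 3 higher in LT 2i, beside 61.5% and 10.4% of all bodies. Its lowest member was Zfp748 (-2.45) and its highest Zfp759 (0.06).

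**Figure D4:**
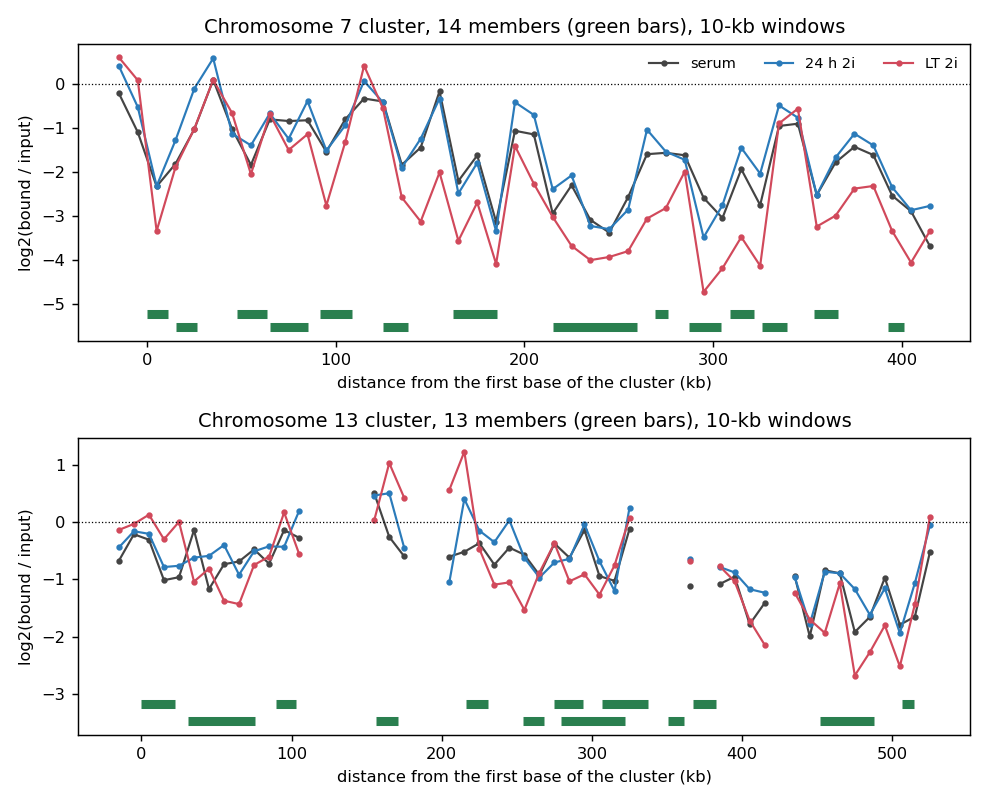
H3K9me2 enrichment (vertical axis, log2 of bound over input, mean of 2 libraries) in 10-kb windows along the 2 largest clusters, against distance from the first base of the cluster in kb; gaps are windows with fewer than 2 deposited bins. Green bars are the zinc finger genes. LT 2i lies below serum in 35 of 44 windows on chromosome 7 and in 22 of 44 on chromosome 13. The windows counted are centred from -15 to 415 kb on chromosome 7 and from -15 to 525 kb on chromosome 13. They thus include flanks outside the clusters.

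The next clusters were those at chr7:24081924-24316666 with 10 genes, chr17:32771236-33106203 with 8, and chr6:47819266-48086593 and chr7:127233061-127449158 with 7 each. Their members' medians in serum were -0.97, -1.51, -1.58 and -2.79. In LT 2i these were -2.06, -2.42, -2.77 and -3.20. Medians are not comparable with the pooled values given for the 2 largest clusters. Pooled over gene bodies, these 4 clusters lay at -1.12, -1.30, -1.63 and -2.98 in serum (means of 2 libraries). In LT 2i the pooled values were -1.44, -1.79, -2.59 and -3.38. In the cluster on chromosome 6 all 6 tested members were lower in LT 2i, in that on chromosome 17 6 of 8 were, and in that of 10 genes on chromosome 7 1 of 4 was, where 61.5% of all bodies were. The lowest and highest members in serum were Zfp61 (-1.88) and Zfp93 (-0.33) for the 10 genes, Zfp871 (-2.26) and Zfp563 (-0.43) on chromosome 17, Zfp212 (-2.33) and Zfp282 (-1.13) on chromosome 6, and Zfp771 (-3.82) and Zfp764 (-1.24) for the second cluster of 7. None of the bodies of the last cluster had 20 bound reads on average, so none was tested.

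Changes of H3K9me2 were tested with limma on bound reads scaled to each library's total over 16611 autosomal gene bodies, of which 238 were zinc finger genes (128 clustered and 110 lone). The 73 other bodies with bins fell under the minimum of 20 bound reads on average. At 24 h 3 of the 238 were higher and 2 lower, against a background of 0.253% and 3.26% of all bodies called higher and lower. The median change was 0.06 for zinc finger bodies and -0.05 for all. The bound reads of Zfp872, whose serum expression value was -5.13, were 67 and 56 in serum, 76 and 87 at 24 h, and 84 and 61 in LT 2i. Its enrichment was -0.87 and -1.07 in serum and -0.13 and 0.01 at 24 h, without overlap, a change of 0.77 ± 0.18 (SE) in bound reads with an adjusted p of 0.0210 in limma. Zfp180 rose by 0.55 ± 0.15 and Zfp532 by 0.40 ± 0.10, while Zfp326 fell by 0.60 and Zfp827 by 0.26. These calls were fragile. No body passed with bound over input, without 24 h replicate 1 or 2 or without serum replicate 1. Leaving out serum replicate 2 or either LT library also changed the count, with 1 library left in that condition. At an unadjusted p under 0.05 there were 33 of the 238, where 2857 of all 16611 bodies passed, and with bound over input there were 41, where 3283 did.

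In LT 2i 14 of the 238 zinc finger bodies were higher than in serum and 130 were lower, or 5.88% and 54.6%, where 10.4% and 61.5% of all bodies were. The values are relative to each library's own reads, and with this scaling the median of all bodies fell by 0.63 on the log2 scale. That of zinc finger bodies fell by 0.57. When the libraries were instead set to a common distribution by quantile normalisation, 87 zinc finger bodies were higher and 43 lower of 238, where 32.6% and 30.3% of all bodies were. The median was then 0.13 against -0.01 for all. The direction of many of these changes thus depended on the scaling, and ChIP-seq without an added standard does not measure the total of the mark. Of the clustered bodies 60 of 128 were lower and 8 higher, with a median of -0.41. Of the lone ones 70 of 110 were lower and 6 higher, with a median of -0.68. Against 24 h, LT 2i had 8 bodies higher and 142 lower, with 8.87% and 58.3% over all bodies.

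The largest falls exceeded the spread between libraries. Zfp710 had 187 and 157 bound reads in serum, 120 and 154 at 24 h, and 23 and 31 in LT 2i. Its enrichment of -4.61 and -3.97 in LT 2i lay below all 4 others, and the change from serum was -2.47 ± 0.19 (SE) with an adjusted p of 2.19e-10 in limma. Zfp839 had 35 and 42 bound reads in serum, 37 and 25 at 24 h, and 11 and 4 in LT 2i. The minimum of bound reads applied to the mean over all bound libraries, and Zfp839 met it through serum and 24 h. The same held for Zfp12, with 58 and 43 reads in serum, 45 and 37 at 24 h, and 15 and 8 in LT 2i. The sizes of the falls of Zfp839 and Zfp12 thus rest on few LT reads, which differed between libraries. Zfp866 fell by 2.06, Zfp952 by 1.96 and Zfp12 by 1.92, and these 5 passed under quantile normalisation as well and without any 1 library.

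The 5 largest rises in LT 2i were in bodies of 3 to 9 bins. Zfp784, whose body is 3 bins long, had 52 and 34 bound reads in serum, 25 and 28 at 24 h, and 106 and 69 in LT 2i. The change of 1.17 ± 0.24 (SE, adjusted p = 0.000135 in limma) passed in each alternative. Zfp958 rose by 0.79, Zfp455 by 0.73, Zfp712 by 0.65 and Zfp707 by 0.64. Zfp455 and Zfp712 lie in the chromosome 13 cluster. The enrichment of Zfp455 was -0.09 and -0.43 in serum, 0.72 and 0.28 at 24 h, and 1.09 and 0.97 in LT 2i, without overlap between serum and 2i. Calls of the last 4 depended on a library. Without serum replicate 2 Zfp958 changed by 0.51, Zfp455 by 0.56 and Zfp707 by 0.39, without LT replicate 2 Zfp707 changed by 0.51, and without serum replicate 1 Zfp712 changed by 0.40, and none of these passed. Zfp712 also missed with bound over input, at 0.52.

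Among the genes with known roles, Zfp445 rose in LT 2i with the scaling used. It acts with Zfp57 to keep imprinted regions methylated. Its body had 90 and 81 bound reads in serum, 81 and 101 at 24 h, and 116 and 97 in LT 2i, and its enrichment was -0.77 and -0.86 in serum, -0.44 and -0.18 at 24 h, and -0.29 and -0.33 in LT 2i. The rise of 0.48 ± 0.16 in LT 2i (SE, adjusted p = 0.0113 in limma) was lost without serum replicate 2 (0.43). Zfp217, a subunit of a co-repressor complex, fell by 1.62 and Zfp143, a promoter-binding activator, by 1.11. Under quantile normalisation Zfp143 differed by -0.36 and Zfp568, which fell by 1.22 here, by -0.46, and neither passed. Under the same scaling the falls of Zfp809 and Zfp57 given next turned to 0.05 and 0.21, without passing. Zfp809, which silences retroviruses through their primer-binding site, fell by 0.79, and the call was lost without LT replicate 1 (-0.42) or serum replicate 1 (-0.78). Zfp57 fell by 0.67 with 36 or fewer bound reads a library in serum and LT 2i, and lost its call without serum replicate 2 (-0.51) or LT replicate 2 (-0.44), and without either 24 h library at the same change. Zfp819 fell by 0.91 and lost its call without LT replicate 1 (-0.54) or serum replicate 2 (-0.77). Zfp462, a partner of the G9a and GLP complex, differed by -0.02 ± 0.07 and Zfp708 by -0.25. Zfp459 differed by -0.13.

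Expression was tested with limma on the deposited log2 values, which are corrected for gene length, over 11376 genes with a mean of 0 or more. Of the 332 zinc finger genes 267 passed this filter and 65 lay below it. At 6 h 16 of the 267 rose and 23 fell, with a background of 8.24% and 6.01% of all genes. At 24 h 60 rose and 110 fell, or 22.5% and 41.2%, where 33.6% and 29.1% of all genes did. At 72 h 38 rose and 83 fell, or 14.2% and 31.1%, where 24.5% and 26.0% of all genes did. The median change of zinc finger genes was -0.03, -0.19 and -0.16 at the 3 times, against 0.01, 0.10 and -0.01 for all genes. Of the clustered genes 35 of 139 rose and 51 fell at 24 h, and of the lone ones 25 of 128 rose and 59 fell, a difference that was not tested. Between 24 and 72 h 39 rose and 33 fell, near the 15.2% and 14.6% of all genes. The count at 6 h was 18 without serum replicate 1 or 2, and 22, 23 and 23 without 6 h replicates 1, 2 and 3. At an unadjusted p under 0.05 in limma, 51 to 60 of the 267 and 2333 to 2405 of all genes passed in these fits. In the main fit 67 and 2891 did.

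The earliest large fall was that of Zfp57, a KRAB protein that binds methylated imprinting control regions. Its log2 values were 6.15, 6.16 and 6.29 in serum, 3.97, 4.19 and 4.38 at 6 h, 4.25, 4.26 and 5.08 at 24 h, and 5.25, 5.08 and 6.11 at 72 h. Every library of 2i lay below every serum library, least so at 72 h. The change was -2.02 ± 0.27 (SE, adjusted p = 0.000434) at 6 h and -1.67 at 24 h in limma. At 72 h it was -0.72 with an adjusted p of 0.0462, and this call was lost on leaving out any serum library (-0.75, -0.74 and -0.67), any 6 h library or 24 h replicate 2 at the same change, or 72 h replicate 1 (-0.61) or 2 (-0.52).

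Zfp532, Zfp423 and Zfp459 also fell at 6 h, by 1.92, 1.69 and 1.67, and Zfp52 by 1.13. Zfp423, a factor of neural and fat cell precursors, had log2 values of 3.32, 3.33 and 3.67 in serum, 1.71, 1.57 and 1.97 at 6 h, 0.11, 0.76 and 1.10 at 24 h, and -0.82, -0.998 and -0.69 at 72 h. The groups did not overlap, and the fall reached 4.28 ± 0.22 (SE, adjusted p = 6.2e-08 in limma) at 72 h, the largest among the 267 genes. Zfp532 had 4.89, 4.78 and 5.07 in serum and 0.79, 1.31 and 2.22 at 24 h. The rises at 6 h were smaller, with 1.06 for Zfp362, 0.82 for Zfp703, 0.80 for Zfp516, 0.76 for Zfp839 and 0.73 for Zfp775. Zfp362 lost its call without serum replicate 1 (0.90), and Zfp703, Zfp516, Zfp839 and Zfp775 lost theirs without serum replicate 1 (0.89, 0.73, 0.71 and 0.65) and without further serum or 6 h libraries.

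At 24 h the falls of Zfp532 (3.47), Zfp871 (3.46), Zfp462 (2.97), Zfp423 (2.78) and Zfp445 (2.62 on the log2 scale) were the largest. Zfp462 had a mean of 4.38 in serum and 1.41 ± 0.62 (SD, n = 3) at 24 h. Zfp445 had 4.13, 4.06 and 4.22 in serum, 3.92, 3.97 and 4.11 at 6 h, 0.96, 1.15 and 2.45 at 24 h, and 2.47, 2.12 and 3.28 at 72 h. Its 24 h libraries lay below every serum and 6 h library. In Zfp57, Zfp445, Zfp462, Zfp532 and Zfp871 the value of 24 h replicate 3 was the nearest to serum. This was not particular to them. Zfp142 had -0.0048, 0.61 and 1.56 at 24 h, against a serum mean of 2.16. In Zfp428 replicate 3 lay furthest, with 5.09, 5.07 and 4.30 against 5.27. Over all tested genes, deviations of 24 h replicate 3 correlated at 0.85 with 72 h replicate 3 and at -0.90 with 72 h replicate 2. The part of this in the falls was not tested. The largest rises at 24 h were those of Zfp688 (1.75), Zfp787 (1.73), Zfp362 (1.64), Zfp775 (1.47) and Zfp444 (1.16). Zfp787 had 0.77, 1.04 and 1.27 in serum and 2.85, 2.81 and 2.61 at 24 h. Zfp688 lies in the second cluster of 7 on chromosome 7, where 3 of 7 genes rose and 1 fell at 24 h, beside 33.6% and 29.1% of all genes.

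**Figure D5:**
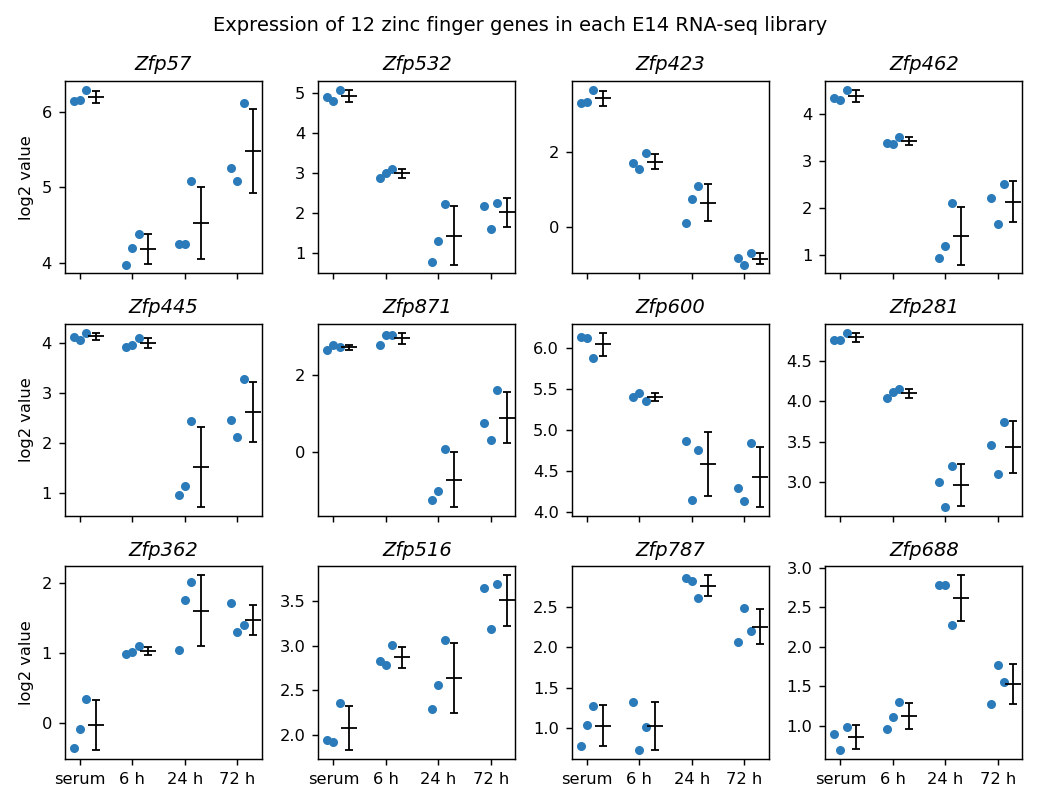
Deposited log2 expression values (vertical axis, a scale per gene) of 12 zinc finger genes in serum and at 6, 24 and 72 h of 2i. Blue points are the 3 libraries of a condition and black marks their mean ± SD; Zfp57 and Zfp423 are already low at 6 h, whereas Zfp445 and Zfp871 are near serum at 6 h and low at 24 h.

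At 72 h Zfp423 was followed by Zfp532 (-2.90), Zfp738 (-2.55), Zfp462 (-2.25) and Zfp488 (-1.96). Zfp738, which has no H3K9me2 bin, had means of 3.83 in serum and 1.28 at 72 h. Zfp362 (1.50), Zfp516 (1.44), Zfp787 (1.22), Zfp944 (1.10) and Zfp870 (0.92) had the largest rises. Zfp516, a co-factor of brown fat genes, had 1.94, 1.92 and 2.36 in serum and 3.65, 3.18 and 3.70 at 72 h. Among the other genes with known roles, Zfp600 fell by 1.46 at 24 h and 1.63 at 72 h. Zfp281, a regulator of the exit from naive pluripotency, fell by 1.84 and 1.37, and Zfp568 by 1.69 and 0.66. Zfp36 fell by 1.21 and 0.66, Zfp809 by 0.66 and 0.42, and Zfp819 by 0.70 and 0.66. Zfp296 and Zfp217 fell by 0.78 and 0.75 at 24 h, with values of -0.06 and -0.15 at 72 h. Zfp143, Zfp207, Zfp708 and Zfp932 did not pass at any time, with values at 72 h of -0.12, -0.08, 0.21 and -0.51.

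Partners of KRAB proteins and of the H3K9 methyltransferases were described from a list of 22, of which 21 were found by symbol and tested. At 24 h 14 fell and 1 rose, at 72 h 13 fell and 0 rose, and at 6 h 1 rose and 2 fell. Over all genes 29.1% fell and 33.6% rose at 24 h, 26.0% fell and 24.5% rose at 72 h, and 6.01% fell and 8.24% rose at 6 h. Trim28 had mean log2 values of 8.77 in serum and 7.58 at 72 h, a fall of 1.18 ± 0.12 (SE). Setdb1 fell by 1.05 at 24 h and differed by -0.39 at 72 h, which did not pass. Ehmt1 fell by 1.19 and 1.41 and Ehmt2 by 1.00 and 1.11 at the 2 times, and Ehmt2 had fallen by 0.77 at 6 h. Wiz, a zinc finger partner of both enzymes, differed by -0.58 and -0.53 without passing. Atrx fell by 1.60 at 72 h, Chd4 by 1.29, Cbx5 by 1.26, Atf7ip by 1.18, Morc2a by 0.92, Zfp644, itself among the 332, by 0.84, Cbx1 by 0.83, Daxx by 0.72, Pphln1 by 0.67 and Suv39h1 by 0.36. The libraries of 24 h were uneven in some of these genes. The SD at 24 h was 0.63 in Atf7ip, 0.63 in Chd4 and 0.60 in Atrx, against 0.10, 0.13 and 0.05 in serum. In Cbx1 and Trim28 the SD at 24 h was 0.02 and 0.15. The part of this spread in the falls was not tested.

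Both assays covered serum and 24 h, and 183 zinc finger genes were tested in both. The 45 whose expression rose at 24 h had a median H3K9me2 change of 0.03 at 24 h, and 26 of them were above 0. The 78 whose expression fell had a median of 0.08, with 47 above 0, and the 60 not called in expression had 0.05, with 34 above 0. Of the 5 bodies called in H3K9me2 at 24 h, Zfp180 and Zfp532 had more of the mark and lower expression, by 0.35 and 3.47 on the log2 scale. Zfp326 had less of the mark and its expression also fell, by 0.71. The expression calls of Zfp180 (-0.27) and Zfp326 (-0.52) were lost without 24 h replicate 1, and that of Zfp326 also without 24 h replicate 2 (-0.60) or any serum library. Zfp827 did not pass in expression (-0.19), and Zfp872 lay below the filter. In LT 2i, where RNA-seq was not analysed here, the enrichment of Zfp532 was -2.75 and -2.80, below both serum (-1.81 and -1.88) and 24 h (-1.34 and -1.37).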

How the data were processed

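The series holds 80 samples, of which the 12 E14 RNA-seq and 9 ChIP-seq libraries were used, grouped by their labels. The authors deposited log2 read values per 2-kb bin for ChIP-seq, with a bin without reads entered as a fraction of a read, and log2 values per gene for RNA-seq, corrected for gene length and depth and set to a common percentile. The submitters' processing notes name Trim Galore 0.3.5, TopHat2 2.0.11, Bowtie2 and GRCm38, without roles. The bisulfite files were not used, because their positions are those of NCBIM37. Columns of single samples left out for want of a label numbered 0.

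ChIP-seq reads were recovered as whole numbers, with all values within 2% of one. At high counts any value lies that near a whole number, so this checks only bins with few reads. Bins with a mean input from 0.25 to 4 times the median were summed over each gene body, which left out 60 of 995960 autosomal bins. Neighbouring genes can share a bin. Enrichment is log2 of bound over input with 1 read added to each and both scaled to their library's reads. The total reads of the RNA-seq libraries are unknown, and each condition has 1 input, so errors of enrichment leave out its error. Both assays were fitted in limma 3.58.1 (R 4.3.3) with an intensity trend and without a block, in 1 fit each over all features. Gene bodies needed a mean of 20 bound reads, genes a mean log2 value of 0, and calls a Benjamini-Hochberg adjusted p under 0.05. In RNA-seq, deviations of same-numbered libraries correlated in each pair of serum with 6 h (r 0.40, 0.26 and 0.66). With 24 h r was 0.33, 0.13 and 0.54, and with 72 h 0.051, 0.38 and 0.47. Replicates 1 and 2 were not told apart by number. Serum replicate 2 correlated at 0.32 with 6 h replicate 1 and at 0.45 with 24 h replicate 1. Replicate 3 of 24 h correlated at 0.85 with that of 72 h and at -0.90 with 72 h replicate 2. Replicate 3 of 6 h correlated at 0.59 with that of 24 h and at 0.58 with that of 72 h. Libraries numbered 3 thus deviated together in every pair of conditions, which the main fit leaves out. For replicates 1 and 2 the values establish no pairing by number. The labels name no pairing, and a replicate block was an alternative. The members and lists were chosen with earlier results of these data known. Named are genes with a known role, the 5 highest and 5 lowest in serum enrichment, up to 5 called rises and 5 falls for each contrast with serum, and the clusters with the most members. No test for these values was found in the methods read here. The scripts were tested on simulated data. Alternatives were other bins, input, scaling, filters, pseudocounts, cluster distances, blocks, removal of a trend by gene length in RNA-seq and the omission of each library. Zinc finger repeats and KRAB domains were not counted, as protein sequences were not analysed here.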

Additional observations from a re-analysis of the deposited data

Results flagged for a closer look

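Effects at 2 times after serum were set against each other directly, by the contrast of the later with the earlier time in the same limma fit. In H3K9me2 8 zinc finger bodies were higher and 142 lower in LT 2i than at 24 h, of 238, beside 8.87% and 58.3% of all bodies. The change from 24 h to LT 2i was -1.43 in Zfp532 and -1.185 in Zfp827. In expression 39 of 267 genes were higher and 33 lower at 72 h than at 24 h, beside 15.2% and 14.6% of all genes. Zfp871 was higher at 72 h by 1.62 and Zfp445 by 1.105, and both had fallen at 24 h. Zfp423, which had fallen at 24 h, changed by a further -1.495 on the log2 scale. Zfp688 and Zfp775, which had risen at 24 h, changed by -1.08 and -0.872.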

How the results depend on the processing

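The number of zinc finger bodies called in H3K9me2 at 24 h (5) was 13 with only serum and 24 h in the fit, 0 with bound over input and 15 with the replicate block. It also changed on leaving out 1 library, which leaves 1 in that condition. At an unadjusted p under 0.05 in limma, 33 bodies passed in the main fit, and 46, 41 and 41 in these alternatives. Of all 16611 bodies 2857 passed in the main fit, and 3449, 3283 and 3380 in these alternatives. In LT 2i the number called (144) stayed within 1.5 times in every alternative, and was 151 with the replicate block. Of all bodies 12248 had an unadjusted p under 0.05 in limma in the main fit and 12470 with the block. The direction of the calls, however, depended on the scaling. In the main fit 14 bodies were higher and 130 lower, whereas under quantile normalisation more were higher than lower. Of all bodies 10.4% and 61.5% were called higher and lower in the main fit, and 32.6% and 30.3% under quantile normalisation. Among the named falls, those of Zfp384, Zfp444, Zfp809, Zfp870 and Zfp57 then became changes of 0.045, 0.0071, 0.049, 0.14 and 0.21. The call at 6 h in expression (39) was 66 with only serum and 6 h in the fit, and 18 to 45 on leaving out 1 library. Of all genes 2891 had an unadjusted p under 0.05 in limma in the main fit. With only serum and 6 h 4563 did, and on leaving out 1 library 2333 to 3450 did. At 24 h (170) and 72 h (121) the ranges on leaving out 1 library were 147 to 181 and 91 to 142. Of all genes, 6811 to 8414 and 5724 to 7118 then had an unadjusted p under 0.05 in limma. With a trend by gene length removed, 180 zinc finger genes and 7534 of all genes passed at that level at 24 h. In the main fit 186 and 7612 did. The clustered minus lone difference of 0.06 in serum was 0.16 with bins inside the body, -0.048 with a cluster distance of 50 kb, and 0.01 to 0.11 on leaving out 1 library. That of 0.37 at 24 h was 0.20 with 50 kb and 0.31 with 5 reads added, and 0.33 to 0.40 on leaving out 1 library. That of 0.47 in LT 2i was 0.53 with bins inside the body, 0.32 with 50 kb and 0.55 with 250 kb, and 0.42 to 0.51 on leaving out 1 library. Chosen after seeing the data, genes above the read minimum gave 0.29 at 24 h and 0.36 in LT 2i. Genes with serum expression from 0 to 2, also chosen so, gave -0.11 in serum and 0.12 in LT 2i. Bound reads alone, against each body's mean over the libraries and likewise chosen late, gave -0.11, 0.038 and 0.092 in serum, 24 h and LT 2i. These last values hold no difference in level and show only steps between conditions. The causes were not tested. With the replicate block the expression counts were 49, 185 and 145, and no named call was lost in either assay. Of all genes 3587, 8313 and 7260 had an unadjusted p under 0.05 in limma at 6, 24 and 72 h with the block. Without it 2891, 7612 and 6408 did. In H3K9me2 libraries of the same number did not deviate together (r from 0.01 to 0.13), so there the numbers are not a pairing. Of 117 named called changes 75 kept their call in every alternative. Bodies with few reads, and the 21 without bins, limit what H3K9me2 can show.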
